A study of Oryza sativa with 24 samples.

Results

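Incubation times of 30 and 120 min in the active cytokinin trans-zeatin (tZ) were compared in rice roots, in the 3 arrays labelled tZ 120 min and the 3 labelled tZ 30 min. These 6 arrays were chosen by the titles of the samples, out of 24 arrays in 8 groups of 3. Roots of 2-week-old seedlings of Oryza sativa L. cultivar Nipponbare had been excised whole and kept in water at 30 °C with 5 µM tZ and 0.1% DMSO, the solvent. The groups labelled root DMSO 30 min and root DMSO 120 min, with 3 arrays each, had been kept in 0.1% DMSO alone and are given beside the tZ groups. Leaf arrays of the same treatments and times were used for 1 comparison between organs. A cut root in water has no shoot attached, which limits it as a model of the root of a whole plant, and all groups share the cutting.

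The protocol text of the samples titled tZ 30 min names both incubation times, so their time rests on the title. That text gives no ground for exchanging treatments. The exchange was taken up with the root levels of the cytokinin response genes given below already known. Each comparison can be read in 2 ways, and the second is spelled out below for part of the genes only. As labelled, the comparison is of 120 with 30 min in tZ. If the titles tZ 30 min and DMSO 120 min were exchanged, the 3 arrays titled tZ 30 min would be solvent arrays at 120 min, and the same values would compare tZ with DMSO at 120 min. The levels in all 4 root groups are given below under the labels as deposited, and which reading holds cannot be told apart from the titles.

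Cytokinins are sensed by membrane receptor kinases that pass a phosphate through phosphotransfer proteins to response regulators in the nucleus. Type-B regulators are transcription factors, and among the genes they switch on are the type-A regulators, which dampen the signal. Cytokinin dehydrogenases (CKX) break cytokinins down, and LOG enzymes release the active free bases. In roots, cytokinin is known for limiting growth and for its interplay with auxin.

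A total of 57194 probe sets were tested. The median signal of a root array ran from 68.2 to 86.7, and log2 values of the tZ arrays correlated within their group at 0.961 to 0.966 across probe sets. The endodermis genes OsCASP1, Lsi1 and Lsi2 were read in all 6 arrays, at 2019 to 2666 for OsCASP1, and they were not called (adjusted p from 0.13 to 0.90, limma). OsCASP1 read 15.9 ± 0.551 (SD, n = 3) in leaf DMSO 30 min. The summed signal of 4 leaf photosynthesis genes, LFNR1, OsrcaA1, OsrbcS and CAB2R, was 1517 to 1670 in tZ 30 min and 1838, 5144 and 1760 in tZ 120 min replicates 1, 2 and 3. It was 10020 to 11365 in root DMSO 30 min, 5924 to 6032 in root DMSO 120 min and 51796 to 89919 in leaf arrays. In this sum replicate 2 read highest of its group, below both DMSO groups, and the gene with the largest part of it was CAB2R, at 1436, 4746 and 1383. The others did not share this rise: LFNR1 read 78.8, 69.7 and 95.5, OsrbcS 231.9, 201.6 and 186.6, and OsrcaA1 91.8, 126.7 and 95.1. None of the 4 was called, and their part in the results below was not tested.

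The array tZ 120 min replicate 2 stood apart from replicates 1 and 3. Over 863 probe sets that differed by at least 2 log2 units between the tZ 30 min mean and the mean of the DMSO groups, the median position on the way from tZ 30 min to DMSO was 8.27% for replicate 1, 38.4% for replicate 2 and 7.84% for replicate 3. Replicate 2 was nearer DMSO than both others in 825 of these probe sets, 95.6%. Its position depended on direction. Where DMSO read above tZ 30 min it was mostly far along the way. Where DMSO read below tZ 30 min it mostly stayed nearer tZ 30 min. The pooled median lies between these 2 sets. Results are given with all arrays. Changes of single genes between the tZ groups are given again without this array where that ends or makes the call or moves the value by over 1.5 times, and counts of gene lists where they differ.

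**Figure D1:**
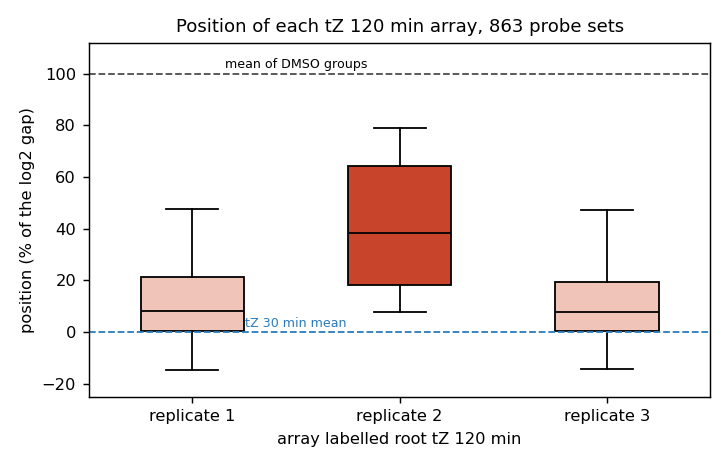
Position of each tZ 120 min root array between the tZ 30 min mean (0%) and the mean of the DMSO root groups (100%), in percent of the log2 gap, over 863 probe sets. Boxes give the median and quartiles and whiskers the 5th and 95th percentiles. The median of replicate 2, 38.4%, lies above those of replicates 1 and 3, 8.27% and 7.84%. Each box pools probe sets higher and lower in DMSO, between which the position of replicate 2 differed.

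Between the tZ groups, 1871 probe sets passed an adjusted p of 0.05 (limma), 3.27% of those tested, with 1017 higher (1.78%) and 854 lower (1.49%) in tZ 120 min. All 3 tZ 120 min arrays lay above all 3 tZ 30 min arrays in 8.22% of probe sets and below them in 10%. By at least 1 log2 unit, 239 were higher and 121 lower, and by at least 2 units 19 and 6. The median change over all probe sets was -0.02 on the log2 scale. Without tZ 120 min replicate 2 the count was 1793 (3.13%), with 953 higher (1.67%) and 840 lower (1.47%). Of these, 1367 probe sets were called with all arrays too, all with the same sign, which is 73.1% of the first list and 76.2% of the second. The count was 1109 without tZ 30 min replicate 2 and 1137 without tZ 30 min replicate 3. With every array shifted to the same median, 67.6% of 1337 calls were higher, against 54.4% of the calls as given. Among the 2454 genes with a name, 229 were called (9.33%), 126 higher (5.13%) and 103 lower (4.2%), and 232 without tZ 120 min replicate 2 (9.45%), 121 higher (4.93%) and 111 lower (4.52%). As in any bulk sample, a higher level can come from more cells of a type or from more RNA per cell.

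Of 33 gene lists, the largest median changes were those of the type-A regulators and the cytokinin dehydrogenases. Of the 6 type-A regulators measured, 5 were higher in tZ 120 min and 0 lower, with a median of 1.55 log2 units. Of the 5 cytokinin dehydrogenases, 4 were higher and 0 lower, with a median of 1.96. Both counts were the same without tZ 120 min replicate 2. The shares called were 83.3% and 80%, against 9.33% among all named genes. The members were picked with earlier results of these arrays known, so the counts are a description.

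OsRR9, a type-A regulator that dampens the cytokinin signal, read 1267, 1221 and 1406 in the tZ 30 min arrays and 11200, 8579 and 10553 in the tZ 120 min arrays. Every tZ 120 min array lay above every tZ 30 min array, and replicate 2 was the lowest of its group. The change was 2.94 ± 0.09 (SE) log2 units (adjusted p = 2.82e-10, limma). The DMSO 30 min arrays read 1998, 1977 and 1895 and the DMSO 120 min arrays 17231, 16266 and 14776, so that tZ 30 min was the lowest of the 4 root groups and DMSO 120 min the highest.

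OsRR6 read 5284, 4851 and 5125 in tZ 30 min and 16409, 12348 and 16477 in tZ 120 min, a rise of 1.55 ± 0.10 (SE) log2 units (adjusted p = 3.75e-07, limma). The groups did not overlap. In DMSO it read 2334, 2645 and 2383 at 30 min and 17130, 17763 and 17421 at 120 min, and the labelled DMSO 120 min arrays again lay above all others.

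OsRR4 read 2500, 2099 and 2421 in tZ 30 min and 7345, 5818 and 7501 in tZ 120 min, a rise of 1.54 ± 0.11 (SE) log2 units (adjusted p = 1.05e-06, limma). For this regulator the tZ 120 min arrays were the highest of the 4 groups: DMSO 30 min read 662, 602 and 624, and DMSO 120 min 3310, 2615 and 3133.

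OsRR1 was dim in tZ 30 min, at 159, 153 and 121, and read 697, 500 and 719 in tZ 120 min. It rose by 1.99 ± 0.19 (SE) log2 units (adjusted p = 2.34e-05, limma), and tZ 120 min was also above both DMSO groups, which read 92.0 to 107 at 30 min and 188 to 259 at 120 min. OsRR2 read 414, 391 and 456 in tZ 30 min and 980, 820 and 1230 in tZ 120 min, a rise of 1.21 ± 0.14 (SE) (adjusted p = 0.00014, limma). Its tZ 120 min arrays overlapped with DMSO 120 min, at 964, 1204 and 1022. OsRR5 stayed below the median array signal, at 12.9 ± 9.72 in tZ 30 min and 13.1 ± 6.48 in tZ 120 min (SD, n = 3), and was not called (log2 change 0.03 ± 0.40, SE; adjusted p = 0.988, limma).

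Among the cytokinin dehydrogenases, OsCKX5 read 474, 450 and 430 in tZ 30 min and 3300, 2202 and 3396 in tZ 120 min. The groups were far apart, with replicate 2 the lowest tZ 120 min array. The rise was 2.64 ± 0.14 (SE) log2 units (adjusted p = 7.62e-08, limma), and DMSO 120 min, at 1156, 1282 and 1217, lay between the tZ groups.

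OsCKX4 read 107, 69.8 and 118 in tZ 30 min and 414, 325 and 446 in tZ 120 min, a rise of 1.83 ± 0.19 (SE) log2 units (adjusted p = 4e-05, limma). DMSO 120 min, at 1013, 762 and 972, was above both. OsCKX3 and OsCKX1 were close to or below the median array signal in tZ 30 min, where OsCKX3 read 37.0, 12.0 and 50.7 and OsCKX1 37.6, 7.10 and 2.0. In tZ 120 min OsCKX3 read 190, 159 and 182 and rose by 1.96 ± 0.30 (SE; adjusted p = 0.00157, limma). OsCKX1 read 184, 85.9 and 184 and rose by 2.33 ± 0.47 (SE; adjusted p = 0.0107, limma). The size of both depends on the constant added before the log: for OsCKX1 it was 3.27 with 5 added and 1.11 with 100 added, and the OsCKX1 call was lost without tZ 30 min replicate 2 (2.2) or replicate 3 (2.05). The OsCKX3 call was lost in a fit of only the tZ arrays without tZ 120 min replicate 2 (2.03). OsCKX11 differed in pattern: it read 6737, 6932 and 7084 in tZ 30 min and 8038, 6488 and 8197 in tZ 120 min, which overlap (log2 change 0.12 ± 0.09, SE; adjusted p = 0.595, limma; 0.23 without tZ 120 min replicate 2; adjusted p = 0.11, limma). Both tZ groups of OsCKX11 lay above both DMSO groups, at 1317 to 1502 and 2170 to 2398.

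**Figure D2:**
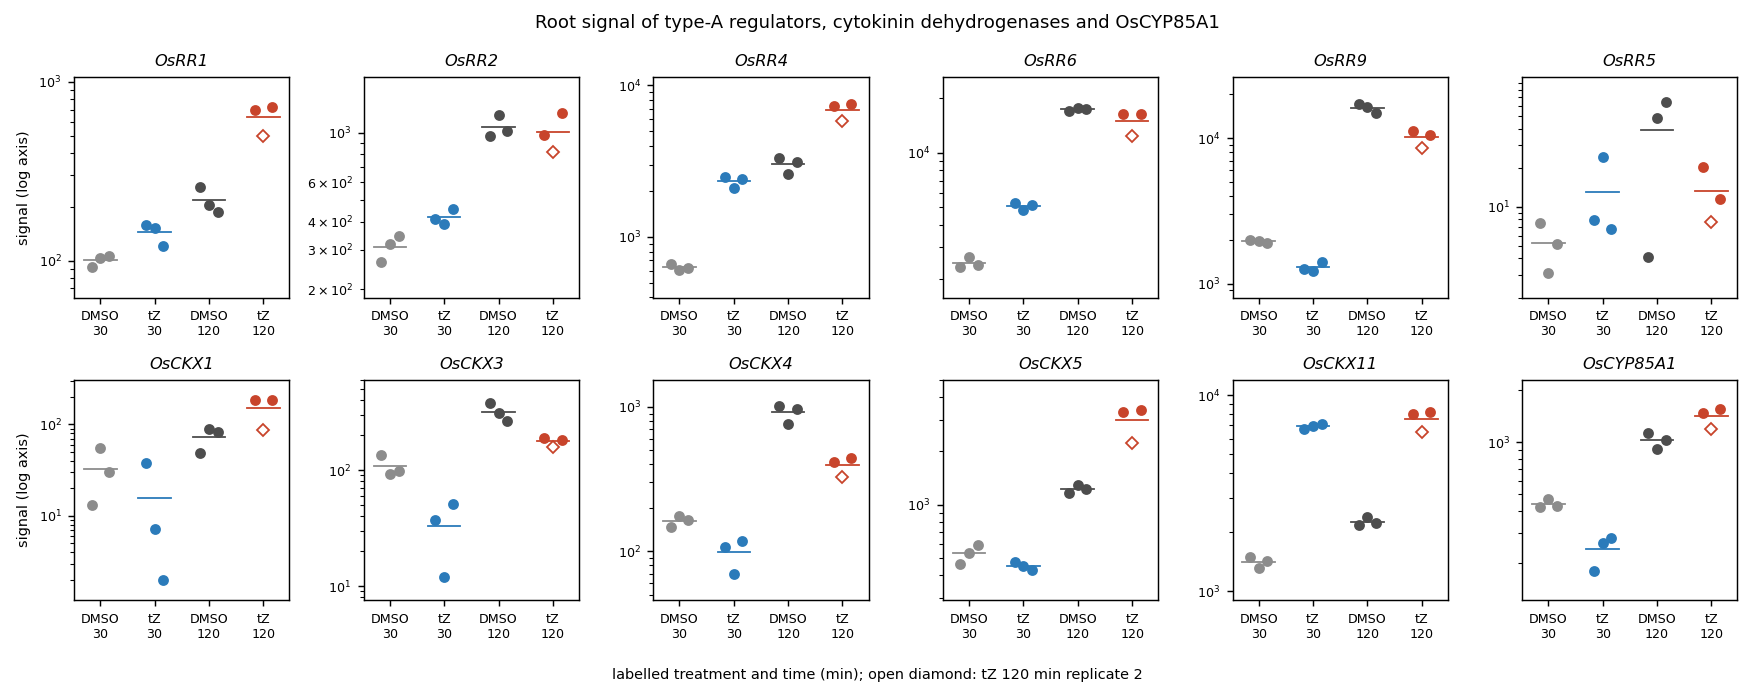
Signal (log axis) of 6 type-A regulators, 5 cytokinin dehydrogenases and OsCYP85A1 in the 12 root arrays, by labelled treatment and time in min. Points are arrays, lines group means and the open diamond tZ 120 min replicate 2; OsRR9 and OsRR6 are highest in DMSO 120 min, OsRR4, OsRR1 and OsCKX5 in tZ 120 min, and OsCKX11 is high in both tZ groups.

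The 2 readings place these levels differently. As labelled, OsRR9 was lower in tZ 30 min than in DMSO 30 min and lower in tZ 120 min than in DMSO 120 min, and it rose with time in both treatments. Other genes did not share this order. OsRR4 and OsRR1 were higher in tZ than in DMSO at both labelled times. OsRR6 was higher in tZ at 30 min and lower in tZ at 120 min. OsCKX11 was higher in both tZ groups than in both DMSO groups. Under exchanged titles, OsRR9 would be at 1267 to 1406 in DMSO at 120 min and 8579 to 11200 in tZ at 120 min, and at 1895 to 1998 in DMSO at 30 min and 14776 to 17231 in tZ at 30 min. OsRR6 would then be at 4851 to 5284 in DMSO and 12348 to 16477 in tZ at 120 min, and OsCKX5 at 430 to 474 and 2202 to 3396. For OsCKX11 the DMSO and tZ arrays at 120 min would then overlap.

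Genes of cytokinin activation and sensing moved less. Of 8 synthesis and activation genes, 4 were called higher and 0 lower, with a median of 0.29, and without tZ 120 min replicate 2 the counts were 3 and 2. LOGL6, a LOG-type activating enzyme, read 346, 481 and 372 in tZ 30 min and 725, 810 and 967 in tZ 120 min (log2 change 1.03 ± 0.15, SE; adjusted p = 0.000824, limma), with no overlap. LOGL9 rose by 0.65 and LOG by 0.57, the latter chosen after its values were seen and with a dimmer probe set that was not called (0.74). LOGL3 and LOGL5, also chosen after their values were seen, were called lower only without replicate 2: LOGL3 read 312, 270 and 325 in tZ 30 min and 152, 369 and 167 in tZ 120 min, and its change was -0.47 (adjusted p = 0.389, limma) with all arrays and -0.84 (adjusted p = 0.00315, limma) without replicate 2. LOGL5 changed by -0.66 (adjusted p = 0.101, limma) and by -0.92 (adjusted p = 0.0048, limma). Without replicate 2 and with only the tZ arrays in the fit, LOGL5 was called and LOGL3 was not. Of 10 receptors, phosphotransfer proteins and type-B regulators, 3 were higher and 1 lower, against 3 and 3 without replicate 2, with a median of 0.03. The shares called were 40% of these 10 and 50% of the synthesis and activation genes, against 9.33% among all named genes. The receptor gene OsCRL1b, also known as OsHK4, rose by 0.86 (1854, 1344 and 1573 in tZ 120 min against 804, 901 and 883), OsCRL4 by 0.57, and OsCRL2 fell by 0.56. The OsCRL4 call was lost without tZ 30 min replicate 1 (0.51) or replicate 3 (0.53).

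OsCYP85A1 and OsCPD2, both of brassinosteroid synthesis, were among the 14 largest rises; no list of that pathway was counted. OsCYP85A1, a brassinosteroid C-6 oxidase, read 181, 262 and 280 in tZ 30 min and 1484, 1198 and 1548 in tZ 120 min. It rose by 2.47 ± 0.15 (SE) log2 units (adjusted p = 2.82e-07, limma), with tZ 120 min the highest of the 4 root groups and tZ 30 min the lowest. OsCPD2, a cytochrome P450 of the same pathway, read 326, 301 and 366 in tZ 30 min and 893, 835 and 942 in tZ 120 min, and rose by 1.38 ± 0.09 (SE; adjusted p = 5.36e-07, limma). Its level in DMSO 120 min, 1942 to 2070, lay above both tZ groups.

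Auxin genes moved both ways. Of 53 auxin-responsive genes 1 was called higher and 6 lower, with a median of -0.10. The 7 called are 13.2% of the list, against 9.33% among all named genes. OsGH3-8, which conjugates auxin to amino acids, was the 1 that rose: it read 1218, 1323 and 1330 in tZ 30 min and 3707, 2974 and 3437 in tZ 120 min (log2 change 1.37 ± 0.09, SE; adjusted p = 5.36e-07, limma). OsTAR2, an auxin synthesis gene chosen after its values were seen, read 373, 337 and 344 against 929, 888 and 873 and rose by 1.30 (adjusted p = 1.5e-06, limma). SAUR39, known in rice as a negative regulator of auxin synthesis and transport, read 2226, 2160 and 2118 in tZ 30 min and 1168, 898 and 1167 in tZ 120 min, and fell by 1.01 (adjusted p = 0.000134, limma). Both groups were above DMSO, where it read 285 to 372 at 30 min and 370 to 404 at 120 min. The repressor IAA9 fell by 0.58. Without tZ 120 min replicate 2 the counts over the 53 were 1 and 5, and with the arrays shifted to the same median 1 and 2.

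OsPIN4, of the PIN family of auxin efflux carriers, read 311, 491 and 391 in tZ 30 min and 139, 130 and 110 in tZ 120 min. The groups did not overlap, and both DMSO groups, at 52.7 to 118, overlapped with tZ 120 min. The fall was 1.50 log2 units (SE 0.27; adjusted p = 0.00474, limma). Of 5 PIN genes it was the 1 that was called (20%, against 9.33% among all named genes). ILL6, of a family that releases auxin from its conjugates, fell by 0.94 (713 to 806 against 365 to 391; adjusted p = 0.000149, limma).

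Some jasmonate genes were higher in tZ 120 min, and in part of them tZ 120 min replicate 2 was the highest array. Of 18 jasmonate synthesis genes 4 were higher and 0 lower, and of 14 TIFY/JAZ repressors 4 were higher and 0 lower, with medians of -0.05 and 0.12. Without replicate 2 the counts were 4 and 1 in both. The shares called with all arrays were 22.2% and 28.6%, against 9.33% among all named genes. OsTIFY11e, a JAZ repressor, read 896, 902 and 962 in tZ 30 min and 2393, 4375 and 1927 in tZ 120 min. Replicate 2 was the highest, and the change was 1.55 ± 0.20 (SE; adjusted p = 0.000272, limma) with it and 1.21 ± 0.09 (SE; adjusted p = 2.66e-06, limma) without. AOS1, an allene oxide synthase, read 661, 609 and 650 against 1204, 2416 and 1063, again with replicate 2 the highest, and rose by 1.16 ± 0.20 (SE; adjusted p = 0.00378, limma). OsOPR6, of the oxophytodienoate reductase family, read 210, 118 and 133 against 646, 436 and 541 and rose by 1.71. OsTIFY9 rose by 1.04, with 560, 509 and 675 against 1328, 1086 and 1217. In the last 2 replicate 2 was the lowest of its group.

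Several stress and nutrient genes were called without replicate 2 and not with it. They were chosen after their values were seen. OsTIFY11a read 311, 356 and 386 in tZ 30 min and 624, 2828 and 478 in tZ 120 min; the change was 1.39 (adjusted p = 0.0951, limma) with all arrays and 0.62 (adjusted p = 0.00606, limma) without replicate 2. OsDREB1B.1, a cold-response factor, read 263, 243 and 201 against 400, 2180 and 318, with 1.41 (adjusted p = 0.125, limma) and 0.57 (adjusted p = 0.00791, limma). For both, the DMSO groups were above all 6 tZ arrays, at 5461 to 8134 for OsTIFY11a and 3020 to 5260 for OsDREB1B.1. Both were also called without tZ 120 min replicate 3, at 1.87 and 1.92. Neither was called without replicate 2 when only the tZ arrays were in the fit. Of 5 DREB1 factors none was called with all arrays and 1 without replicate 2.

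OsAMT1;2, an ammonium transporter, read 1492, 1574 and 1652 in tZ 30 min and 602, 1958 and 485 in tZ 120 min. Replicates 1 and 3 lay below all tZ 30 min arrays and replicate 2 above them. The change was -0.90 (adjusted p = 0.202, limma) with all arrays and -1.51 (adjusted p = 7.42e-07, limma) without replicate 2. OsNRT2.2, a nitrate transporter, read 2876, 3605 and 3337 against 1948, 5931 and 1962, with -0.20 (adjusted p = 0.839, limma) and -0.73 (adjusted p = 0.00021, limma). Of 16 nitrate and ammonium genes 0 were called either way with all arrays, and 0 higher and 3 lower without replicate 2.

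**Figure D3:**
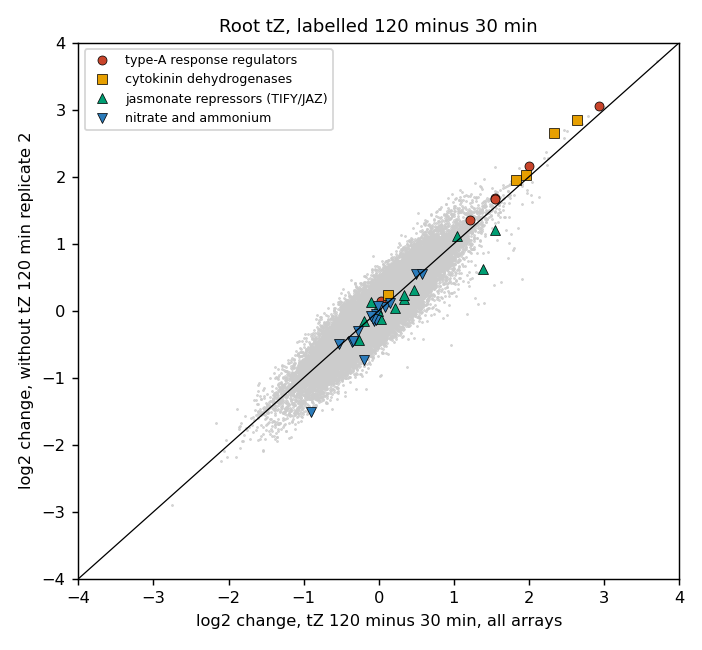
Log2 change from tZ 30 to tZ 120 min with all arrays (x axis) and without tZ 120 min replicate 2 (y axis) for 57194 probe sets in grey, with 4 gene lists in colour and the line of equal change. Type-A regulators and cytokinin dehydrogenases lie on or slightly above the line, while OsTIFY11a (1.39 and 0.62) and OsAMT1;2 (-0.90 and -1.51) lie below it.

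Of 77 calcium sensors and kinases 7 were higher and 2 lower, with a median of 0.03, against 6 and 3 without tZ 120 min replicate 2. The 9 called with all arrays are 11.7% of the list, near the 9.33% called among all named genes. OsCAM-2, a calmodulin-type gene, read 464, 400 and 447 in tZ 30 min and 1081, 2852 and 989 in tZ 120 min. It rose by 1.69 ± 0.27 (SE; adjusted p = 0.00217, limma) with all arrays and by 1.21 ± 0.12 (SE; adjusted p = 2.7e-05, limma) without replicate 2, the highest array. CML16 read 3496, 3084 and 3084 against 5260, 10494 and 5536 and rose by 1.06, and CML8 fell by 0.68. The WRKY factor OsWRKY76, known in rice as a repressor of defence genes, rose by 0.77, a call lost without tZ 30 min replicate 3 (0.65). The chitinase gene OsChia2a rose by 0.85, as did another of its probe sets (0.98; adjusted p = 0.00108, limma), while the dimmest of the 3 was not called (-0.29).

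Of 25 HD-Zip factors 4 were higher and 1 lower, with a median of -0.01, against 5 and 0 without tZ 120 min replicate 2. The share called with all arrays was 20%, against 9.33% among all named genes. OsHox2 read 121, 49.2 and 167 against 350, 370 and 266 and rose by 1.50 ± 0.28 (SE; adjusted p = 0.00647, limma), and OsHox1 read 1038, 885 and 950 against 1950, 1702 and 1910 and rose by 0.94 ± 0.11 (SE; adjusted p = 9.07e-05, limma). Both were highest in DMSO 120 min, and the OsHox2 call was lost with only the 6 tZ arrays in the fit. The clock gene OsPCL1 rose by 0.60, the 1 of 7 clock genes that was called (14.3%, against 9.33% among all named genes). OsABA8ox2, an abscisic acid 8'-hydroxylase, rose by 0.83, a call lost without any 1 of tZ 120 min replicates 1 (0.89) and 3 (0.61) and tZ 30 min replicates 1 (0.76) and 3 (0.81).

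Of 6 hypoxia and fermentation genes 0 were higher and 1 lower, with a median of -0.28, against 0 and 0 and a median of -0.15 without tZ 120 min replicate 2. The share called with all arrays was 16.7%, against 9.33% among all named genes. PDC1 and CPDK2 read far higher in both tZ groups than in both DMSO groups. PDC1, pyruvate decarboxylase of ethanol fermentation, read 22266, 23470 and 21699 in tZ 30 min, 17988, 12794 and 17666 in tZ 120 min, 175 to 183 in DMSO 30 min and 83.7 to 113 in DMSO 120 min. It fell by 0.49 between the tZ groups (adjusted p = 0.0309, limma), and the call was lost without tZ 120 min replicate 2 (-0.33), the lowest array, and without tZ 30 min replicate 1 (-0.50), 2 (-0.46) or 3 (-0.52). CPDK2, pyruvate phosphate dikinase, read 22467, 23653 and 21401 against 13927, 9830 and 13154, and fell by 0.89 (adjusted p = 0.000906, limma). Its DMSO arrays read 523 to 774. As labelled, both genes were high with tZ at either time. Under exchanged titles they would be high in both 120 min groups, with tZ below DMSO, and low in both 30 min groups.

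OsCASPL1C1, OsbZIP37 and OsHsp24.1 were among the largest falls. OsCASPL1C1, of the CASP-like membrane proteins, read 4920, 4709 and 5018 in tZ 30 min and 2419, 2066 and 2424 in tZ 120 min, and fell by 1.08 ± 0.08 (SE; adjusted p = 1.3e-06, limma). OsbZIP37 read 3656, 4750 and 4150 against 1928, 2261 and 1826 and fell by 1.05, and tZ 120 min was the lowest of its 4 groups. OsHsp24.1, a small heat shock protein, fell by 1.02, and OsNAC5, a stress-related NAC factor, by 0.73, while its 2 dimmer probe sets were not called (-0.35 and -0.56). Of 42 heat shock factors and proteins 3 were higher and 8 lower, with a median of -0.15, and the factor OsHsf-07 rose by 0.49. The 11 called are 26.2% of the list, against 9.33% among all named genes. Without tZ 120 min replicate 2 the counts were 4 and 6 and the median -0.26, and with the arrays shifted to the same median the counts were 2 and 5. SAT1, a serine acetyltransferase gene, read 6629, 7411 and 7162 against 4262, 3553 and 4395 and fell by 0.80, while a dimmer probe set of it was not called (0.03). OsAPRL1 read 3356, 3108 and 3013 against 1607, 2035 and 1739 and fell by 0.82; of its 2 other probe sets 1 was called (-1.02) and the dimmest was not (-1.11).

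Of 39 cyclins, kinases and inhibitors 0 were higher and 4 lower, with a median of -0.09. These 4 are 10.3% of the list, near the 9.33% called among all named genes, and with the arrays shifted to the same median 0 were higher and 2 lower. KRP5 and KRP6, inhibitors of cyclin-dependent kinases, fell by 0.59 and 0.69. KRP6 read 1041, 1146 and 1084 against 789, 556 and 676, and its call was lost without tZ 120 min replicate 2 (-0.56), without tZ 30 min replicate 2 (-0.66) or 3 (-0.70), and with the arrays shifted to the same median (-0.63); a dimmer probe set of KRP6 was not called (-1.09). The KRP5 call was lost without tZ 30 min replicate 2 (-0.50). Of 24 histone and DNA replication genes and of 20 ribosomal protein genes, none was called with all arrays or without replicate 2, with medians of -0.10 and -0.07.

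Expansins, which loosen cell walls, had 3 higher and 2 lower of 29, against 4 and 3 without tZ 120 min replicate 2: OsEXPB7 rose by 0.53, and OsEXLA2 fell by 0.59, a call lost without tZ 30 min replicate 2 (-0.55). Of 22 iron genes 3 were higher and 1 lower, and OsNAS1, a nicotianamine synthase, rose by 0.51, from 13887 to 15827 in tZ 30 min to 19616 to 23448 in tZ 120 min. Of 20 phosphate and sulfate genes 2 were higher and 2 lower: OsPHT3 rose by 0.94, with replicate 2 the highest array (1459, 2480 and 1385 against 772, 936 and 956), and OsPHR3 fell by 0.60. Of 25 aquaporins 0 were higher and 3 lower, against 0 and 4 without tZ 120 min replicate 2, and 0 were called with the arrays shifted to the same median. The shares called with all arrays were 17.2% of expansins, 18.2% of iron genes, 20% of phosphate and sulfate genes and 12% of aquaporins, against 9.33% among all named genes.

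**Figure D4:**
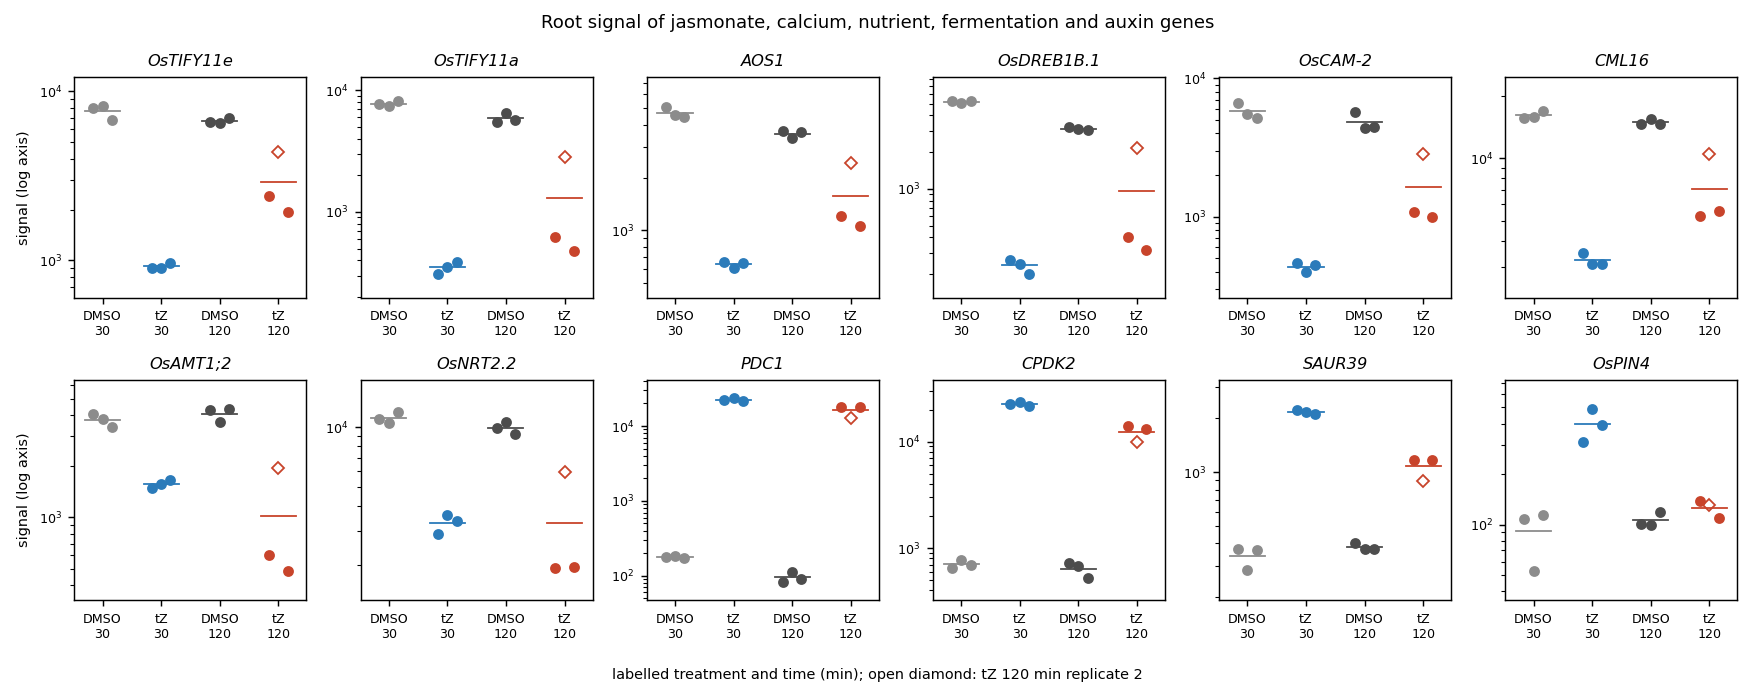
Signal (log axis) of 12 genes of jasmonate, cold response, calcium, nutrient uptake, fermentation and auxin in the 12 root arrays, by labelled treatment and time in min. Points are arrays, lines group means and the open diamond tZ 120 min replicate 2, which lies toward the DMSO groups for OsDREB1B.1 (2180 against 400 and 318) and OsAMT1;2 (1958 against 602 and 485).

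The labelled time effect in tZ was then set beside that in DMSO, which uses other arrays. Between DMSO 120 and 30 min 1745 probe sets were called (3.05%), 893 higher (1.56%) and 852 lower (1.49%), and of named genes 8.27%, 4.56% higher and 3.71% lower. There too 5 of 6 type-A regulators and 4 of 5 cytokinin dehydrogenases were higher. Under exchanged titles this contrast would compare tZ with DMSO at 30 min, here and for each DMSO change given below. The test of the difference between the 2 effects called 1131 probe sets (1.98%), 668 above 0 (1.17%) and 463 below 0 (0.81%), and with the arrays shifted to the same median 84.3% of 848 were above 0 against 59.1%. Under exchanged titles the same difference keeps its value and is the tZ effect at 120 min minus the tZ effect at 30 min. The count was 579 and 696 without DMSO 30 min replicates 2 and 1, 657 and 674 without DMSO 120 min replicates 2 and 3, and 686 and 670 without tZ 30 min replicates 2 and 3.

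Cytokinin genes differed in both directions. OsCKX5 rose by 2.64 between the tZ groups and 1.17 between the DMSO groups, a difference of 1.47 (adjusted p = 0.0011, limma), and OsCYP85A1 by 2.47 and 1.18, a difference of 1.29 (adjusted p = 0.0044, limma). OsRR6 went the other way, at 1.55 and 2.82, with a difference of -1.27 (adjusted p = 0.00025, limma). OsRR4 did so too (-0.68; adjusted p = 0.032, limma), but this call was lost when any 1 of 7 root arrays was left out (-0.61 to -0.71), with 100 added before the log (-0.58) and with the arrays shifted to the same median (-0.54). For OsRR9 the effects were 2.94 and 3.02, and their difference did not pass the test (-0.09; adjusted p = 0.85, limma).

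The difference was called for 3 of 53 auxin-responsive genes (5.66%, 1 above and 2 below 0) and for 3 of 13 pathogenesis-related genes (23.1%, 2 above and 1 below 0). Over all probe sets the share was 1.98%, and over named genes it was not counted. Larger shares were found in some short lists. Above 0 were 3 of 6 WRKY factors (50%) and 4 of 14 TIFY/JAZ repressors (28.6%). Below 0 were 2 of 5 PIN carriers (40%) and 2 of 6 type-A regulators (33.3%). Of 5 cytokinin dehydrogenases, 2 were called (40%), 1 above and 1 below 0. OsGH3-8 changed by 1.37 in tZ and 0.04 in DMSO (difference 1.33; adjusted p = 8.6e-05, limma), and SAUR39 by -1.01 and 0.16 (difference -1.17; adjusted p = 0.0018, limma). PBZ1, a pathogenesis-related protein of rice, rose by 2.13 in DMSO, from 1727, 1736 and 1767 to 7876, 8051 and 7138, and read 5012, 5399 and 5089 in tZ 30 min and 4450, 3586 and 4448 in tZ 120 min. Its change in tZ, -0.32, was called with all arrays and lost without replicate 2 (-0.21), with the arrays shifted to the same median (-0.26) or quantile-normalized (-0.30), and without any 1 of 8 other root arrays (-0.29 to -0.34). The difference was -2.44 (adjusted p = 1e-07, limma). OsPHT3, OsChia2a, OsWRKY76 and OsTIFY11e had differences of 1.88, 1.64, 1.40 and 1.73.

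**Figure D5:**
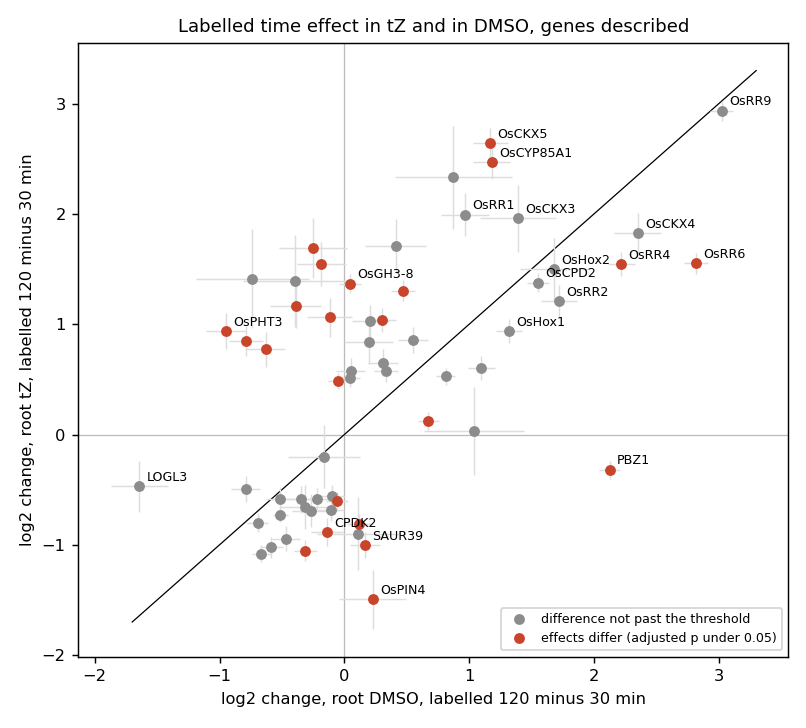
Log2 change from labelled 30 to 120 min in root DMSO (x axis) and root tZ (y axis) for the 61 genes described, with SE bars and the line of equal change. Red marks the 23 genes whose 2 effects differed (adjusted p under 0.05, limma); OsRR9 lies near the line, OsCKX5 and OsGH3-8 above it, and OsRR6 and PBZ1 below it.

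The same contrast in leaf gave a test of organ. The difference, leaf minus root, was called for 1045 probe sets (1.83%), 399 above 0 (0.698%) and 646 below 0 (1.13%). OsRR4 and OsRR1 rose more in leaf, by 1.94 (adjusted p = 1.4e-08, limma) and 2.04 (adjusted p = 0.0031, limma). In leaf, OsRR4 read 371, 307 and 383 in tZ 30 min and 4150, 3828 and 4441 in tZ 120 min. OsRR1 was dim in leaf tZ 30 min, at 27.2, 63.6 and 6.7, so the size of its leaf rise depends on the constant added before the log. OsCYP85A1 rose more in root (-1.80; adjusted p = 0.00041, limma). OsCKX3 and OsCKX1 also gave lower values in leaf minus root (-2.35 and -2.28), with leaf signals of 2.90 to 37.2 and 1.2 to 14, below the median array signal. Both calls were lost without leaf tZ 120 min replicate 1 (-2.13 and -2.15). That of OsCKX1 was also lost without 5 other arrays (-2.0 to -2.23) and with 5 added before the log (-3.23). If the titles were exchanged in both organs, this would be the difference between organs of the tZ effect at 120 min.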

How the data were processed

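Transcript levels were measured on a 1-colour rice array. The authors deposited intensity values, as a linear signal for each probe set on each array. Their summarising software is not named in the sources used here. The trimmed mean of an array, without the outer 2% on either side, was 499.95 to 499.96, which shows a scaling to a common level by the authors. From the 57381 probe sets, 187 controls were left out. Values were turned into log2(signal + 20), which shrinks changes of dim genes, and tested in 1 fit of the 12 root arrays (24 for the organ difference) with limma 3.58.1 in R 4.3.3 (eBayes with trend, two-sided, Benjamini-Hochberg over 57194 probe sets, threshold 0.05). The fit was tested on simulated data. With 3 arrays per group, their number limits the precision. No label says whether arrays of a group came from separate plants or cultures, so the p-values reflect only the spread of the arrays, possibly technical.

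Probe sets were named through the array annotation and a RefSeq table of assembly ASM3414082v1 (names only): 22436 had 1 gene, 95 several and 34663 none. The brightest probe set stands for a gene. Genes were named if called with and without tZ 120 min replicate 2 and not overlapping (the 14 largest rises and falls), as type-A regulators or cytokinin dehydrogenases, as the 2 largest called each way in any of 33 lists, or as the 5 largest each way in a difference; others are said to be chosen after their values were seen, and not every gene selected is described. The members and lists were chosen with earlier results of these data known. Same-numbered tZ arrays did not deviate together (r of -0.007, -0.003 and -0.004). Other groups were not compared in this way, so whether the numbers pair arrays is not known. Promoter sequences were not used here. Alternatives were other constants, a filter, scalings, weights, a replicate block, fewer arrays and leaving out each array.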

Additional observations from a re-analysis of the deposited data

Results flagged for a closer look

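The labelled time effect in tZ differed between root treatments or between organs, by a test of the difference itself (limma, adjusted p under 0.05), for the genes below; values are log2 differences. For tZ minus DMSO in root, values above 0 were found for OsCAM-2 (1.95), OsPHT3 (1.88), OsTIFY11e (1.73), OsChia2a (1.64), AOS1 (1.55), OsCKX5 (1.47), OsWRKY76 (1.40), OsGH3-8 (1.33), OsCYP85A1 (1.29), CML16 (1.18), OsTAR2 (0.83), OsTIFY9 (0.73) and OsHsf-07 (0.54). In the first 5 of these, and in OsWRKY76 and CML16, tZ 120 min replicate 2 was the highest array of its group. Values below 0 were found for PBZ1 (-2.44), OsPIN4 (-1.72), OsRR6 (-1.27), SAUR39 (-1.17), OsAPRL1 (-0.93), CPDK2 (-0.75), OsbZIP37 (-0.74), OsRR4 (-0.68), OsCKX11 (-0.55) and OsPHR3 (-0.54). Of these 23 calls 14 held under all 20 alternatives. Those of CPDK2 and OsPHR3 were lost under many alternatives, among them leaving out tZ 120 min replicate 2. The other 7 with an exception were CML16, OsCAM-2, OsCKX11, OsPIN4, OsRR4, OsTIFY9 and OsbZIP37. The OsbZIP37 call was lost only with the arrays shifted to the same median, and the rest were lost under several alternatives each.

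For leaf minus root in tZ, values above 0 were found for OsRR1 (2.04), OsRR4 (1.94), OsCASPL1C1 (1.53), OsHsp24.1 (1.42), ILL6 (1.31), OsRR2 (1.28), OsAPRL1 (0.97), KRP5 (0.89), OsNAC5 (0.86), SAT1 (0.76), OsRR6 (0.70), OsRR9 (0.69) and OsPHR3 (0.64). All of the type-A regulators called here rose more in leaf. OsCASPL1C1 was dim in leaf, at 27.2 to 49.7 in tZ 30 min and 43.8 to 75.5 in tZ 120 min, and its call was lost with 5 added before the log (1.66). Values below 0 were found for OsCKX3 (-2.35), OsCKX1 (-2.28), OsWRKY76 (-1.94), OsCYP85A1 (-1.80), OsCAM-2 (-1.68), OsChia2a (-1.17), CML16 (-1.16), LOGL9 (-1.11), OsCKX5 (-0.91), OsGH3-8 (-0.81), OsTIFY9 (-0.76), OsHsf-07 (-0.57), OsPCL1 (-0.55) and OsTAR2 (-0.47). Of these 27 calls 19 held under all 20 alternatives, and the other 8 were KRP5, OsCASPL1C1, OsCKX1, OsCKX3, OsCKX5, OsPCL1, OsPHR3 and OsTAR2. Those of KRP5, OsCKX5 and OsPCL1 were lost under a replicate block and, with that of OsTAR2, when any 1 of several arrays was left out, and that of KRP5 also without tZ 120 min replicate 2. With 5 added before the log those of KRP5, OsCKX1 and OsCKX5 were lost too, and with 100 added that of OsTAR2. Array weights ended the call of KRP5, quantile normalization that of OsPCL1, and the shift to the same median those of OsPHR3 and OsTAR2.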

How the results depend on the processing

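The count of 1871 probe sets between the tZ groups was 1109 to 1813 when each array was left out in turn. It was 1115 with only the 6 tZ arrays in the fit, which leaves fewer arrays to estimate the spread, and 1393 when tZ 120 min replicate 2 was also left out, an alternative chosen after seeing the data, as was leaving out DMSO arrays. It ran from 1337 (arrays shifted to the same median) to 2312 (dim probe sets left out) under the other settings, and was 1800 with a replicate block. The difference between tZ and DMSO, 1131 probe sets, gave 579 to 1382 with arrays left out and 1080 with the replicate block; the difference between organs, 1045, gave 776 to 1216 and 1036. Of 61 genes described, 42 kept their direction and their side of the threshold in the tZ comparison under all 22 alternatives. OsRR5, never called, turned to -0.12, -0.07 and -0.10 without tZ 120 min replicate 1, tZ 30 min replicate 1 and tZ 30 min replicate 3, within -0.12 to 0.26 over all arrays left out, and OsNRT2.2 to 0.067 and 0.062 without tZ 120 min replicates 1 and 3, within -0.73 to 0.067. With the arrays shifted to the same median the counts higher and lower were 3 and 0 of the TIFY/JAZ repressors, 3 and 0 of cytokinin synthesis and activation, 5 and 1 of calcium sensors, 4 and 0 of HD-Zip factors, 3 and 1 of expansins, 2 and 1 of iron genes and 2 and 1 of phosphate and sulfate genes. With only the 6 tZ arrays the calls of 7 genes were lost: OsHox2, OsCRL4, PDC1, PBZ1, KRP5, OsABA8ox2 and OsWRKY76. With tZ 120 min replicate 2 also left out, the calls lost were those of OsCKX3 (2.03), LOGL9 (0.67), OsHox2, OsCRL4, PBZ1, KRP5 and OsWRKY76. The replicate block ended the calls of PDC1 (-0.49) and PBZ1 (-0.32) between the tZ groups, of CPDK2 (-0.75) between tZ and DMSO, and of OsCKX5 (-0.91), KRP5 (0.89) and OsPCL1 (-0.55) between organs, and no other call of the genes described. Genes near or below the median array signal are limited by the brightness of the probe set, since the constant sets the size of their change.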
